A study of Mus musculus with 2 samples.

Results

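Endosomal sorting genes were examined across the cell classes and both libraries of a single-cell RNA study of immune cells from mouse gingiva. The members were genes whose symbol is Vps, Snx or Chmp followed by a number and at most 1 letter. Genes for the beta, gamma, delta, mu and sigma subunits of the adaptor complexes AP-1, AP-2 and AP-3 were also members. The alpha subunits of AP-2 were left out. This rule found 92 of the 32285 genes in the count tables. It used symbols and no measured value, and it also took in Vps72, which encodes a chromatin protein and not an endosomal one. Of the 92 members, 91 had at least 1 unique molecular identifier (UMI, a tag that counts 1 captured transcript) in the WT cells kept and 90 in those of the other library, and 82 had at least 100 UMIs in the higher library.

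The study profiled infiltrating immune cells taken from C57BL/6 mouse gingiva under experimental periodontitis, and its title concerns the deubiquitinase OTUD1 and protein transport in neutrophils. There was 1 library of wild-type (WT) cells and 1 of cells with the genotype Otud1-/-, both on the C57BL/6 strain, made with the 10x Genomics 3′ chemistry. How many animals were pooled, their age and sex, the timing of the periodontitis model and the deleted part of Otud1 are not given in the sources used here. With 1 library per genotype there were no replicates, so no test was run and genotype cannot be told apart from library; every interval below is a 95% interval that covers counting error only.

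Endosomes receive cargo from the cell surface and from the Golgi apparatus and decide whether it is recycled or degraded. Sorting nexins bind endosomal lipids, and those with a BAR domain also bend membrane into tubules; retromer and retriever collect cargo for recycling. The ESCRT complexes cluster ubiquitinated cargo and bud it into the endosome's lumen, where the ATPase VPS4 disassembles the ESCRT-III polymer, and the CORVET and HOPS tethers bring endosomes and lysosomes together. In neutrophils the same machinery serves phagocytosis, granule formation and the traffic of adhesion receptors.

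The WT library held 13267 cell barcodes with a median of 2241 UMIs, and the library labelled Otud1-/- held 8109 with a median of 3716; 37 barcodes occurred in both. After filters and removal of presumed doublets 11414 and 6486 cells were kept. Otud1 did not follow the label: it stood at 18.6 CPM (UMIs scaled to a common library total) in the WT barcodes and at 33.0 CPM in the others. A 3′ tag may lie outside the deleted part, so this count cannot check the deletion, and the second library is called "the library labelled Otud1-/-" throughout. Cells were clustered without using the members, and clusters were named by marker genes; 6 classes with at least 100 cells in both libraries were compared. They were neutrophil-like (910 WT and 893 other cells), B-like (2097 and 2879), monocyte/macrophage-like (2399 and 642), T-like (1928 and 899), dendritic-like (908 and 351) and NK-like cells (403 and 194).

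Summed over all members, endosomal sorting transcripts took a similar part of the RNA in every class compared. The sum ranged from 3695 CPM in dendritic-like to 4346 CPM in neutrophil-like cells of the WT library. In the library labelled Otud1-/- it ranged from 3517 CPM in dendritic-like to 5011 CPM in neutrophil-like cells. Over all kept cells the member with the highest mean level was Vps37b, an ESCRT-I subunit, at 542 CPM in the WT library and 449.9 CPM in the other. Next came Snx20, a sorting nexin of leukocytes that binds the tail of the selectin ligand PSGL-1, with 168 and 253 CPM. The ESCRT-III subunits Chmp4b (189 and 216 CPM) and Chmp2a (164 and 166 CPM) and the BAR-domain nexin Snx5 (179 and 185 CPM) completed the highest 5. Counts of 3′ tags do not grow with transcript length, so these levels were compared between genes without a length correction.

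Most members were spread across the classes, and a few were concentrated in 1 class or, for Snx10, in neutrophil-like and monocyte/macrophage-like cells. A member was called high in a class when it reached 20 CPM there and lay at least 2-fold above all other kept cells of the same library, in both libraries. In neutrophil-like cells 4 of 36 members at that level were high, against 17.8% of all genes at that level. In B-like cells there were 4 of 47 (4.95% of all genes) and in monocyte/macrophage-like cells 2 of 50 (12.5%). T-like cells had 1 of 42 (5.04%), and there were 0 of 45 in dendritic-like cells (5.41%) and 0 of 43 in NK-like cells (6.93%). Except in B-like cells, the members' share was below that of all genes. Of the 82 members with enough UMIs, 23 had their highest level in B-like cells in both libraries (20.2% of all genes did) and 12 in monocyte/macrophage-like cells (9.02%). Neutrophil-like cells had the highest level in both libraries for 7 members (10.2% of all genes) and the lowest for 25 (32.7%). NK-like cells had the highest level of 4 members (10.1% of all genes), dendritic-like of 3 (6.72%) and T-like of 2 (8.64%). B-like cells had the lowest level of 10 members (8.4%), NK-like of 7 (6.64%), dendritic-like of 4 (6.7%), T-like of 2 (1.87%) and monocyte/macrophage-like of 1 (0.831%).

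**Figure D1:**
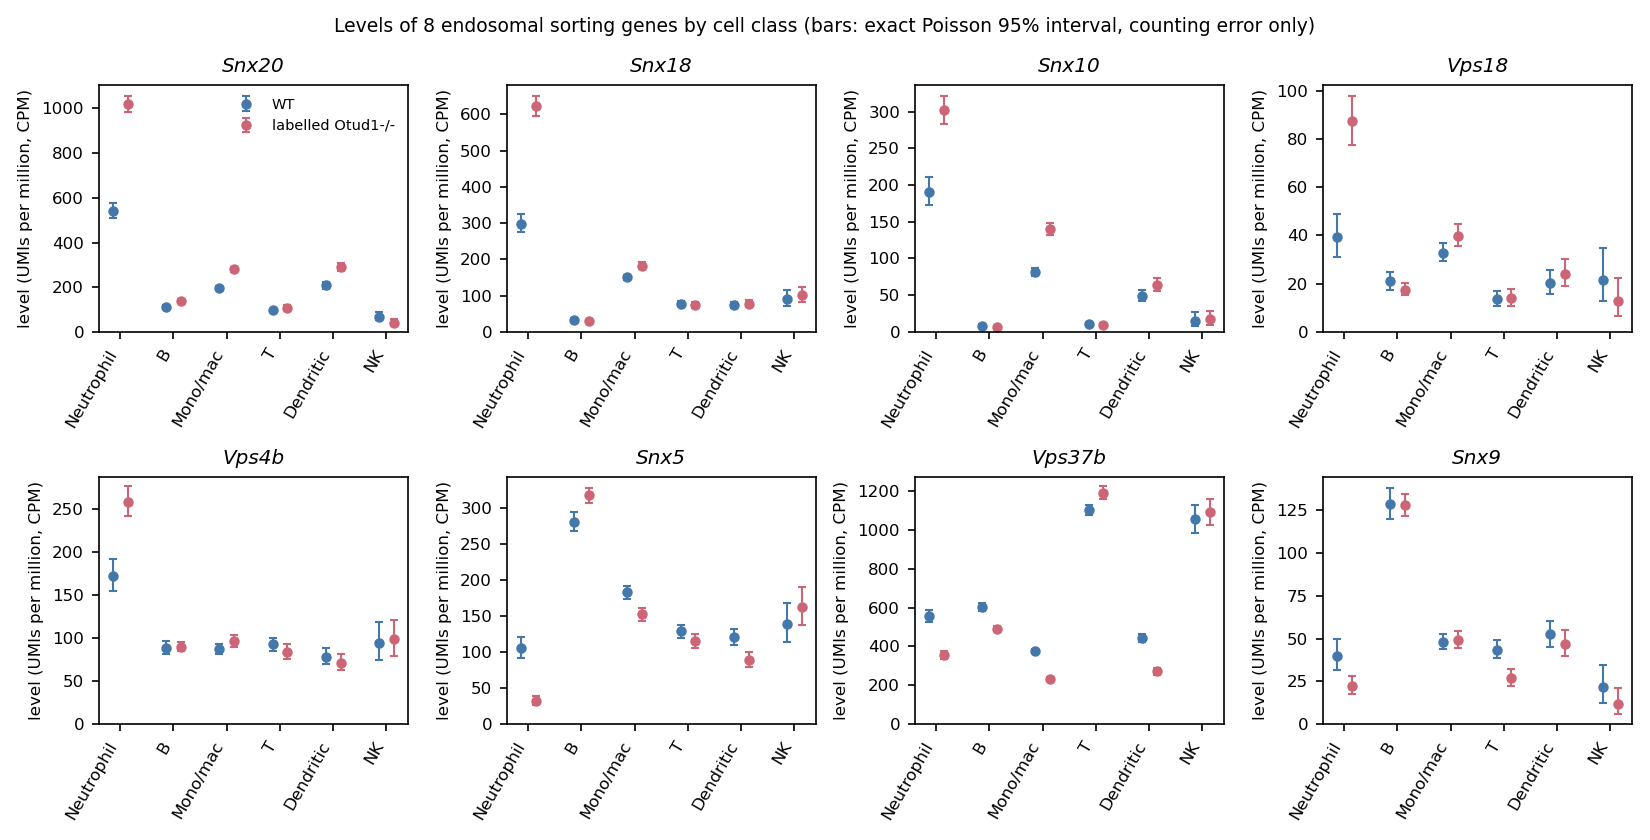
Level of 8 members (CPM of the class total, linear axis from 0) in the 6 compared classes, WT in blue and the library labelled Otud1-/- in red, bars giving the exact Poisson 95% interval. Snx20, Snx18 and Snx10 are highest in neutrophil-like cells of both libraries, Snx5 and Snx9 in B-like cells, and Vps37b in T-like and NK-like cells.

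The members concentrated in neutrophil-like cells were 3 sorting nexins and 1 ESCRT ATPase; with presumed doublets kept, or with cells weighted equally, 3 members were high there. Positions are given from the GENCODE M21 annotation of mm10. Snx20 (chr8:88626563-88636128, minus strand) reached 542 CPM in WT neutrophil-like cells and 1020.3 CPM in those of the other library. Its next levels were 208 and 289 CPM in dendritic-like and 197 and 280.1 CPM in monocyte/macrophage-like cells, and its lowest were 69.0 and 40.9 CPM in NK-like cells. The neutrophil-like intervals (510.3 to 576 CPM in the WT library) did not overlap those of any other class compared, while the dendritic-like and monocyte/macrophage-like intervals overlapped in both libraries.

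Snx18 (chr13:113592179-113618564, minus strand), a BAR-domain nexin that acts with dynamin at membranes being pinched off, stood at 299 CPM in WT neutrophil-like cells and at 623 CPM in those labelled Otud1-/-. It was next highest in monocyte/macrophage-like cells, with 150.2 and 183 CPM, and lowest in B-like cells, with 33.8 and 30.6 CPM. Outside the compared classes, plasmacytoid dendritic-like cells (624 WT and 77 other cells) also held much Snx18, at 274 and 257 CPM. In the WT library the intervals of neutrophil-like (275 to 324 CPM) and plasmacytoid dendritic-like cells (249.8 to 299 CPM) overlapped, and in the other library they did not.

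Snx10, a small nexin with a lipid-binding domain and little else (chr6:51523901-51590679, plus strand), ranged 24.8-fold over the 6 classes in the WT library and 43.0-fold in the other. It stood at 191 and 302 CPM in neutrophil-like, 81.6 and 140 CPM in monocyte/macrophage-like and 49.6 and 64.2 CPM in dendritic-like cells. In B-like cells it was at 7.71 and 7.02 CPM, and in NK-like cells at 15.3 and 17.2 CPM. The 3 myeloid classes thus lay above the 3 lymphoid classes in both libraries. When each cell was thinned to 1000 UMIs, 14.3% of WT and 27.3% of the other neutrophil-like cells had a Snx10 UMI (26.8% and 50.3% before thinning), with 154 and 68 shallower cells left out. The same share was 1.07% and 0.505% in B-like cells, whose median depths were 2686 and 3462 UMIs against 1612.5 and 2648 in neutrophil-like cells.

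Vps4b (chr1:106764071-106796728, minus strand), which encodes 1 of the 2 ATPases that take ESCRT-III apart, was at 173 and 259 CPM in neutrophil-like cells. In the other 5 classes it lay between 71.6 and 99.0 CPM, and its intervals in B-like, monocyte/macrophage-like and NK-like cells overlapped one another in the WT library.

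Promoter sequences are shown for Snx18, which was concentrated in neutrophil-like cells, and for Vps18 and Snx5, the members that were farthest apart between the libraries there. They are from RefSeq, build GRCm38.p6, and run 5′ to 3′ on the gene's strand from upstream of the RefSeq start site into the transcript: chr13:113618515-113618814 (minus strand) for Snx18, chr2:119288492-119288791 (plus strand) for Vps18 and chr2:144270523-144270822 (minus strand) for Snx5. The GENCODE gene of Snx5 begins farther upstream, so its window lies inside that gene. Capitals mark matches to CACGTG, the E-box core that MYC and the TFEB-type regulators of lysosomal genes can bind.
Snx18: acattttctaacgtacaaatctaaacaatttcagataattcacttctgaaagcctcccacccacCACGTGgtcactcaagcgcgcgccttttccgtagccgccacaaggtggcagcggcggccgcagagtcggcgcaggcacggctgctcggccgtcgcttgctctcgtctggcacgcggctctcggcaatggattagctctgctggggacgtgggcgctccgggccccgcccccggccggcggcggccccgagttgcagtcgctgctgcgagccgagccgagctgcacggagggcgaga
Vps18: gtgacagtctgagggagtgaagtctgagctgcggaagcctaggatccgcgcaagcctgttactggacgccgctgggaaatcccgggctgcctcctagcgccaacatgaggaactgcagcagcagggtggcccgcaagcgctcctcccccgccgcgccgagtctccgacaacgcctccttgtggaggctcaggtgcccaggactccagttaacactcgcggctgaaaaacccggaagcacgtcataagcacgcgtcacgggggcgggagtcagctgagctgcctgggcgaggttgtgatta
Snx5: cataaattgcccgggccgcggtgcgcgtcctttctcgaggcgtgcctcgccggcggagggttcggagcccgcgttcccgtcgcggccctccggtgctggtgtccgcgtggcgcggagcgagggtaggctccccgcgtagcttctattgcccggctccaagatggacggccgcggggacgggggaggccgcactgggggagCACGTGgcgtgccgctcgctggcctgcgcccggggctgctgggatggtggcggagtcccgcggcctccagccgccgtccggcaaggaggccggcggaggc

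Of the 92 members 64 had a promoter in that table. CACGTG, which reads the same on both strands, was in 9 of these 64 (14.1%) and in 7.24% of the 27025 promoters listed. The longer TCACGTGA, which contains CACGTG and is the form found at many lysosomal genes, was in 3 of 64, those of the tether subunits Vps16 and Vps33a and of the retromer subunit Vps26a, and in 1.01% of all promoters. On either strand, GAGGAAGT, a form bound by the myeloid factor PU.1, was in 1 of 64 (3.28% of all) and TTGCNNAA, a form bound by C/EBP factors, in 3 of 64 (10.8% of all). A match describes these letters only. Of the other 3 motifs none was in the 3 promoters shown.

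B-like cells held a different group of sorting nexins. Snx9, a close relative of Snx18, was at 128 CPM in both libraries' B-like cells and at no more than 52.4 CPM in the other 5 classes. Snx30, another BAR-domain nexin, was at 106 and 92.9 CPM in B-like cells and at or below 33.9 CPM in the other 5. Snx29 (63.2 and 62.2 CPM) and the BAR-domain nexin Snx8 (54.3 and 50.5 CPM) were also high there. None of these 4 differed by 1.5-fold between the libraries in B-like cells: their log2 ratios, library labelled Otud1-/- over WT, lay between -0.18 and -0.01.

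Snx5 (chr2:144250123-144270906, minus strand), which pairs with SNX1 or SNX2 to form the tubulating coat on recycling endosomes, was likewise highest in B-like cells among the 6 classes, at 280.5 and 317 CPM. In the order of the WT library, monocyte/macrophage-like cells followed with 183 and 152 CPM, then NK-like (139 and 163 CPM, above monocyte/macrophage-like cells in the other library), T-like (129 and 115 CPM) and dendritic-like cells (121 and 88.9 CPM), and neutrophil-like cells came last with 105 and 32.9 CPM. The WT intervals of NK-like, T-like, dendritic-like and neutrophil-like cells overlapped from each class to the next. Plasmacytoid dendritic-like cells, which had too few cells in the second library to be compared, held more Snx5 than B-like cells, at 386 (357 to 416) and 401 (354 to 453) CPM.

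Vps37b (chr5:124004641-124032270, minus strand) was the member of T-like cells, at 1100.3 and 1191 CPM, with NK-like cells close behind at 1055 and 1092 CPM. B-like cells had 604 and 491 CPM, neutrophil-like cells 556 and 357 CPM, dendritic-like cells 443 and 273 CPM and monocyte/macrophage-like cells 377 and 231 CPM. Its level in 128 WT cells of the ILC2-like cluster, at 1608 CPM (1481 to 1742), was above that of T-like cells. Among the 4 T-like clusters of the WT library Vps37b ran from 683 CPM, in a cluster led by Tnfrsf4, Ctla4 and Ikzf2, to 1515 CPM in one led by Trdc, Cd163l1 and Il17a. In the other library the cluster led by Tnfrsf4 was again lowest, at 767 CPM, and a cluster led by Dapl1, Tdrp and Lef1 was highest, at 1425 CPM. The gene's 3′ end overlaps Hip1r on the opposite strand, and whether the counting used strand is not given in the sources used here. Mgme1 overlaps Snx5 on the opposite strand, but not at the 3′ end of Snx5.

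Vps18 (chr2:119288740-119298453, plus strand), a core subunit shared by the CORVET and HOPS tethers, was a low-level member. It was highest in neutrophil-like cells, at 39.2 CPM (31.0 to 48.9) in the WT library and 87.2 CPM (77.3 to 97.9) in the other. Monocyte/macrophage-like cells had 32.8 and 39.9 CPM, and the remaining 4 classes lay between 12.9 and 24.2 CPM. In the WT library the intervals of neutrophil-like and monocyte/macrophage-like cells overlapped, and in the library labelled Otud1-/- they did not. The members high in monocyte/macrophage-like cells were Snx10 and Ap1s2, a small subunit of the AP-1 adaptor. Ap1s2 stood there at 68.1 and 64.9 CPM.

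In some gene families the leading member, or its share, differed between the classes. In others the shares were close, as for Chmp2a, at 80.4% to 89.2% of Chmp2a and Chmp2b UMIs in the classes compared. These families were chosen after their values were seen. Snx18 made up 88.0% (85.3% to 90.4%) of the UMIs of Snx9, Snx18 and Snx33 in WT neutrophil-like cells and 96.2% in the other library, against 20.5% and 19.1% in B-like cells. Vps4b was 91.5% and 97.1% of the VPS4 UMIs in neutrophil-like cells and between 71.1% and 83.6% in the other 5 classes. For the retromer subunit VPS26, Vps26a gave 93.6% and 93.4% in neutrophil-like and 95.7% and 98.1% in B-like cells. It gave 68.2% and 60.8% in T-like cells, where the rest was Vps26b. NK-like cells were near this, at 67.7% and 66.7%, from 31 and 42 UMIs of the family.

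The share of Ap1s2 among the 3 AP-1 small subunits was 61.3% and 65.7% in monocyte/macrophage-like cells and 26.0% and 22.1% in B-like cells. In neutrophil-like cells it differed between the libraries, at 57.6% (48.9% to 65.9%) in WT and 89.4% (83.2% to 94.0%) in the library labelled Otud1-/-. These were 80 of 139 and 127 of 142 UMIs, from class totals of 1990310 and 3256987 UMIs. Relative to those totals Ap1s2 was similar, and Ap1s1 and Ap1s3 together were lower in the library labelled Otud1-/-. Within cluster 1, described below, Ap1s2 had 23 UMIs in WT and 114 in the other library, Ap1s1 8 and 4, and Ap1s3 5 and 5. Snx5 among Snx5, Snx6 and Snx32 was at 87.5% and 86.7% in B-like cells, 79.8% and 52.7% in neutrophil-like cells and 75.1% and 60.7% in dendritic-like cells. Outside neutrophil-like and dendritic-like cells the Snx5 share differed by less than 5 percentage points between the libraries. Ap1s3 and Snx5 were highest in B-like cells of both libraries. Summed B cell markers stood at 1429 CPM in WT and 389.9 CPM in the other neutrophil-like cells. The part of such RNA, and of the unequal clusters, in these shares was not tested.

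**Figure D2:**
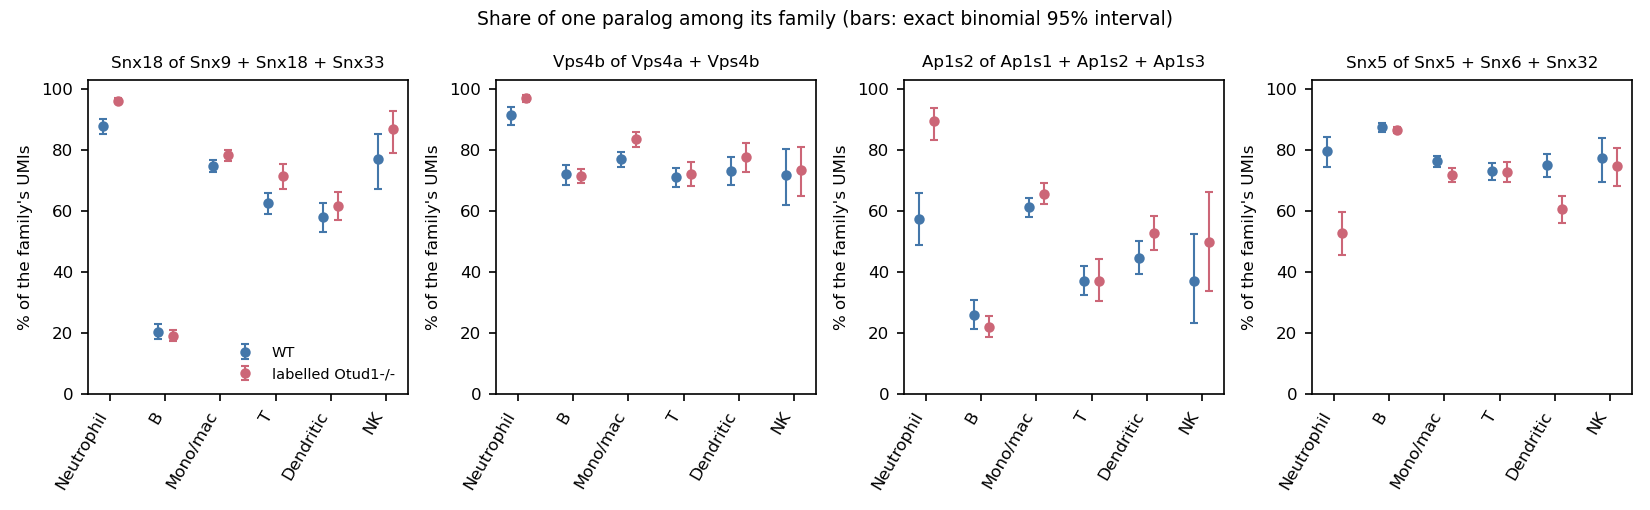
Share of 1 paralog among its family's UMIs (percent, axis from 0) in the 6 compared classes, WT in blue and the library labelled Otud1-/- in red, bars giving the exact binomial 95% interval. Snx18 and Vps4b take their largest share in neutrophil-like cells, and the Ap1s2 and Snx5 shares there lie far apart between the libraries. The part of B cell RNA in those shares was not tested.

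More members lay past 1.5-fold between the libraries in neutrophil-like cells than in any other class compared. A gene was compared when its mean reached 50 CPM and its higher library 100 UMIs, and it was counted as higher or lower at 1.5-fold. Of the 92 members 19 were compared: 5 were higher in the library labelled Otud1-/-, against 22.1% of the 2289 genes compared, and 3 were lower, against 22.6%. The members higher were 26.3% and those lower 15.8%, so the shares were near the background of a class in which many genes differed. The median log2 ratio was 0.52 over the 19 members and 0.03 over all genes compared. The summed member level was 1.15 times the WT value (interval 1.12 to 1.18). Without Snx18 and Snx20, singled out after their values were seen, the sums of the other 90 members were 3504 and 3367 CPM, a ratio of 0.961.

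These ratios depended on the scaling and on the level of the genes. With TMM scaling, which shifted the median of all genes to 0.60, 12 members were higher (50.9% of all genes) and 1 was lower (11.1%), with a member median of 1.09. Within cluster 1, described below, 2 of 16 members compared were higher (8.18% of all genes) and 0 lower (11.6%). Without the filter, 85 members had a UMI in both libraries; 35 of them were lower (47.7% of all 12256 genes) and 7 higher (9.83%), and the median was -0.42, beside -0.52 for all genes. A gene that passes the filter through 1 high library is more likely to differ, so the 19 do not stand for the whole family.

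RNA of other cell types and signs of RNA quality differed between the libraries within this class. Summed markers of B cells stood at 1429 CPM in WT and 389.9 CPM in the other neutrophil-like cells, with 10 of 10 markers detected in both. T cell markers stood at 609 and 74.6 CPM (16 of 16 detected in both), and none of either list was at 0. Other lists had the opposite order: erythroid markers were at 67.8 and 446 CPM (5 and 6 of 8 detected) and plasma cell markers at 264 and 455 CPM (8 and 7 of 8). The plasma cell difference was uneven over the clusters described below. Plasma cell markers were at 230 and 3070 CPM in cluster 24, 223 and 259 CPM in cluster 1 and 325 and 231 CPM in cluster 12. Ribosomal protein genes took 15.2% and 5.54% of UMIs, and the median mitochondrial share was 2.99% and 0.298%. Neutrophil markers, all 12 detected in both, summed to 69806 and 113725 CPM. The class was made of 3 clusters of unequal make-up: cluster 1 held 337 WT and 830 other cells, cluster 12 held 455 and 46, and cluster 24, led by Ngp, Camp and Ltf, held 118 and 17. The part of these differences in the member ratios was not tested. Values within cluster 1 are given beside most member results. In that cluster B cell markers were at 695 and 298 CPM, T cell markers at 349.7 and 57.3 CPM and ribosomal genes at 8.49% and 4.85%.

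Among the tethers, Vps18 was the 1 of 7 CORVET/HOPS subunits that could be compared. It had 78 UMIs in WT and 284 in the other library, and with 39.2 and 87.2 CPM its log2 ratio was 1.14 (0.79 to 1.53). Its WT level was below the mean level set for comparison, which Vps18 met only through its higher library. A gene compared in this way is more likely to differ, so its place as the highest ratio depends partly on the filter. Within cluster 1 Vps18 was at 51.1 and 90.0 CPM, a log2 ratio of 0.81 (0.35 to 1.31). The intervals did not overlap in either setting. Summed over the 7 subunits the level was 110.0 CPM in WT and 136 CPM in the library labelled Otud1-/-. Without Vps18 the sum of the other 6 had the opposite order, 70.8 and 49.1 CPM, and each of them was below the level needed for a comparison.

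The sorting nexins lay on both sides of 0. Snx18 was higher in the library labelled Otud1-/-, with a log2 ratio of 1.06 (0.93 to 1.19), and in cluster 1 the ratio was 0.62 (432 and 664 CPM). Snx20 followed with 0.91 (0.81 to 1.01) and Snx10 with 0.66 (0.49 to 0.83). Within cluster 1 these were smaller: 0.38 for Snx20 and 0.09 (-0.11 to 0.29) for Snx10, which stood there at 304 and 323 CPM. Snx10 thus did not differ beyond counting error within the cluster that held most cells of the second library. The fourth compared nexin, Snx3, which helps retromer carry recycling cargo, had 112 and 137 CPM and a log2 ratio of 0.29.

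Snx5 was the member with the lowest ratio. It had 209 UMIs in WT and 107 in the library labelled Otud1-/-, or 105 and 32.9 CPM, a log2 ratio of -1.66 (-2.03 to -1.33). With presumed doublets kept the Snx5 ratio was -0.92. In cluster 1 it was at 67.4 and 24.9 CPM, a log2 ratio of -1.42 (-1.95 to -0.91) at a mean level below the one set for comparison. In cluster 12 the order was opposite, at 133 CPM in WT and 263 CPM in the other library, where 46 cells gave 25 UMIs. B cell markers in cluster 12 stood at 2451 CPM in WT and 3490 CPM in the other library, so that in both clusters the library with more B cell RNA had more Snx5. The part of that RNA in the Snx5 values was not tested. Its partner Snx2 lay below the filter, with 59.3 and 19.96 CPM.

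Retromer and ESCRT members were spread between these ends. Of the retromer and retriever subunits, Vps26a was higher, with 58.8 and 91.8 CPM and a log2 ratio of 0.64 (0.33 to 0.96). Vps29 had 0.52 (69.8 and 100.4 CPM), and Vps35, the subunit that binds both, had -0.04 (59.3 and 57.7 CPM). The interval of Vps35 (-0.38 to 0.31) lay just below that of Vps26a in the class. In cluster 1 Vps26a was under 1.5-fold, at 0.57 (0.16 to 1.01), Vps29 had 0.42 and Vps35 -0.04 (-0.52 to 0.46), and the intervals overlapped. In ESCRT-I, Vps28 stood at 105 and 153 CPM (0.54, and 0.31 in cluster 1) and Vps37b at 556 and 357 CPM (-0.64, -0.76 to -0.52). The Vps37b ratio was -0.46 in cluster 1 and -0.07 with TMM scaling, past 1.5-fold in neither.

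Of the 10 ESCRT-III subunits 4 were compared, and none of these passed 1.5-fold. Chmp4b, the polymer's main building block, came nearest, with 279 and 416 CPM and a log2 ratio of 0.57 (0.43 to 0.72). Chmp2a had 0.14, Chmp5 -0.02 and Chmp3 -0.43 (66.8 and 49.4 CPM). Vps4b, at 173 and 259 CPM, had 0.58 (0.40 to 0.77), just under the 1.5-fold line. Within cluster 1 the ratio was 0.27 for Chmp4b and 0.37 for Vps4b. Of the adaptors, Ap3s1, the small subunit of AP-3, which sends cargo to lysosomes and related granules, had 0.58 (53.8 and 80.4 CPM), and 0.36 in cluster 1. The AP-2 subunits of clathrin-coated pits lay on the other side: Ap2s1 was lower at -0.67 (72.4 and 45.4 CPM) and Ap2m1 had -0.31 (57.3 and 46.1 CPM). In cluster 1 Ap2s1 was under 1.5-fold and under the level for comparison, at -0.38 (-0.90 to 0.15). With TMM scaling the Ap2s1 ratio was -0.10 and that of Ap2m1 turned to 0.25, and no AP-1 subunit reached the level for comparison.

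**Figure D3:**
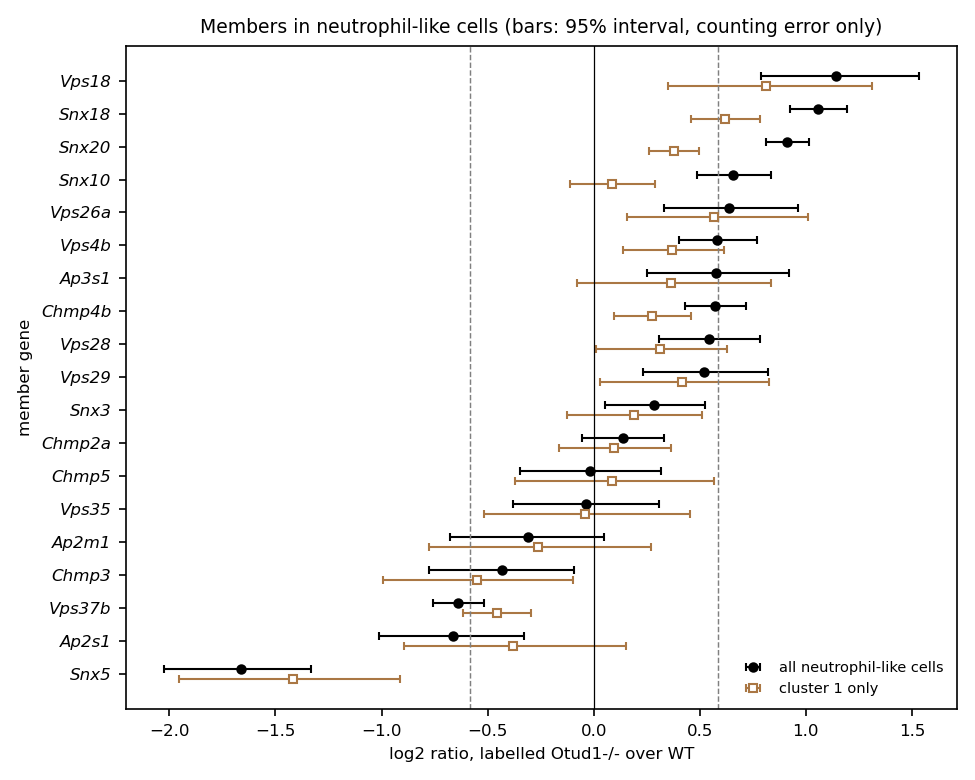
Log2 ratio of the 19 members compared in neutrophil-like cells, library labelled Otud1-/- over WT, for the class (black circles) and for cluster 1 alone (open squares), with 95% intervals for counting error and dashed lines at 1.5-fold. Vps18, Snx18 and Snx20 lie at the high end and Snx5 at the low end, and most cluster 1 values lie nearer 0.

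In the other classes few members differed. In B-like cells 0 of 20 members were higher (0.388% of all genes were) and 0 lower (1.63%), with ratios from -0.38 for Ap2b1 to 0.38 for Snx3. In T-like cells 0 of 18 were higher (0.687%) and 0 lower (3.74%), and in NK-like cells 0 of 8 were higher (7.47%) and 0 lower (4.42%). Member medians were 0.02 in B-like, -0.03 in T-like and 0.22 in NK-like cells, beside -0.03, -0.01 and 0.11 for all genes. In B-like cells Snx20 (0.34) and Vps29 (0.33) were the next highest, and Chmp3 (-0.36) and Vps37b (-0.30) the next lowest. T-like cells had their highest ratio at Ap3s1 (0.29) and their lowest at Snx2 (-0.34), and NK-like cells theirs at Ap2s1 (0.55) and Chmp2a (-0.18).

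Monocyte/macrophage-like cells had 1 of 24 members higher (6.32% of all genes) and 1 lower (3.52%). Snx10 was the higher one, at 81.6 CPM in WT and 140 CPM in the library labelled Otud1-/-, a log2 ratio of 0.77 (0.64 to 0.91). Snx20 (0.51) and Ap3s1 (0.50) came next. Neutrophil markers (12 of 12 detected in both libraries) summed to 2837 and 8972 CPM in this class, and their part in the Snx10 and Snx20 ratios was not tested. Vps37b was the lower one, at 377 and 231 CPM and a ratio of -0.70 (-0.79 to -0.62), and it was lower in each of the 4 clusters of the class. Dendritic-like cells had 0 of 18 members higher (2.7%) and 1 lower (4.72%), which was again Vps37b, at 443 and 273 CPM and -0.70 (-0.82 to -0.58). With TMM scaling Vps37b in dendritic-like cells was at -0.54, and in monocyte/macrophage-like cells with a Y-linked and no Xist UMI it was at -0.36, both under 1.5-fold. Member medians were 0.13 and 0.07, beside 0.06 and -0.01 for all genes.

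Vps37b was thus lower in the 3 myeloid classes, and in T-like cells its ratio was 0.11 (0.06 to 0.17). T cell markers, which mark the compared class with the most Vps37b, were also lower in the second library in each of these myeloid classes. They were at 755 and 341 CPM in monocyte/macrophage-like and 919 and 206 CPM in dendritic-like cells, beside the 609 and 74.6 CPM in neutrophil-like cells. They were lower too in NK-like (921 and 653 CPM) and B-like cells (121 and 54.3 CPM), where the Vps37b ratios were 0.05 and -0.30. Their part in the Vps37b ratios was not tested. Monocyte/macrophage-like cells also differed in depth, with a median of 2383 UMIs in WT and 10100.5 in the other library.

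**Figure D4:**
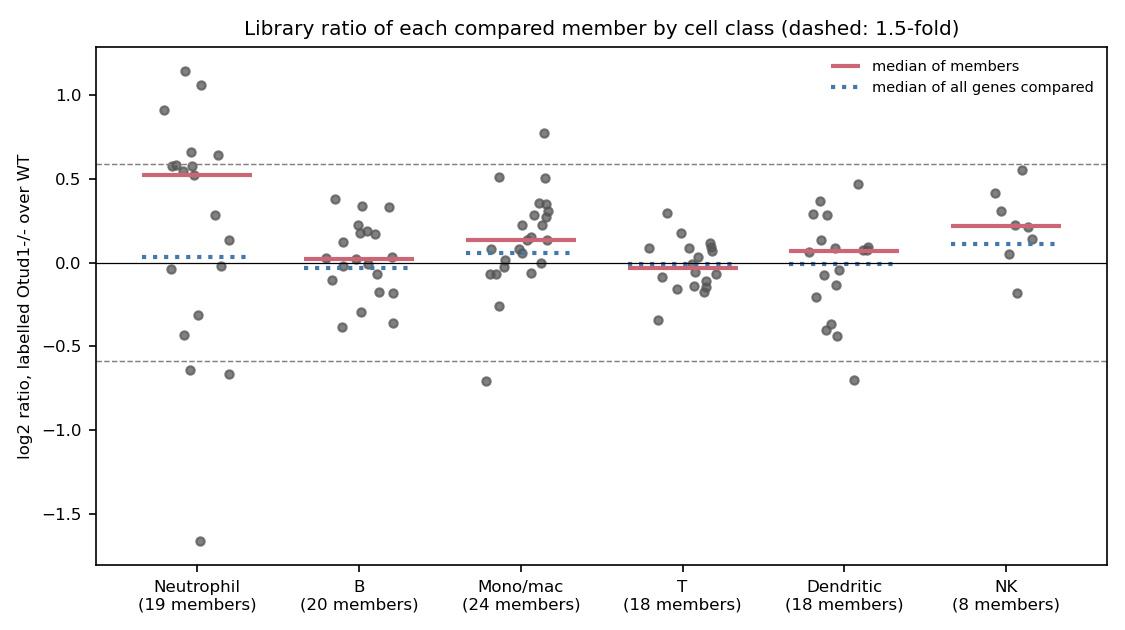
Log2 ratio of each compared member by class, library labelled Otud1-/- over WT, with the member median (solid red), the median of all genes compared (dotted blue) and dashed lines at 1.5-fold. Points spread widest in neutrophil-like cells, and in B-like, T-like and NK-like cells all lie within 1.5-fold.

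Partners of the members outside the symbol rule were described from a list of 75 genes, of which 74 were in the tables. In neutrophil-like cells 16 were compared; 4 were higher and 0 lower, with a median log2 ratio of 0.10, where 22.1% and 22.6% of all genes compared were higher and lower. The highest was Eea1, a tether of early endosomes, at 94.0 and 201 CPM and a ratio of 1.09 (0.86 to 1.34). Ubap1, an ESCRT-I subunit, had 0.92 (44.2 and 84.1 CPM) and met the 50 CPM mean only through its higher library. Ist1, an ESCRT-III-like protein, had 0.76 (73.4 and 125 CPM), and Picalm, a clathrin adaptor, 0.63 (411 and 636 CPM). Values within cluster 1 or with TMM scaling are not given for these 4 partners. The part of the unequal clusters in their ratios was not tested. Among the other classes 1 of 14 partners was lower in T-like cells (Epn1, -0.63; 3.74% of all genes) and 1 of 20 in dendritic-like cells (Ap2a2, -0.64; 4.72%). None of 17 in B-like, 22 in monocyte/macrophage-like or 4 in NK-like cells passed 1.5-fold. Of all genes, 0.388% were higher and 1.63% lower in B-like, 6.32% and 3.52% in monocyte/macrophage-like, and 7.47% and 4.42% in NK-like cells.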

How the data were processed

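The authors deposited whole-number UMI counts for each gene in each barcode, without normalisation, as the values show. The submitters' processing notes name mm10, Seurat 3.2.3 and Cell Ranger 5.0.0, whereas the headers of the tables name Cell Ranger 6.0.1. The libraries held 44878537 (WT) and 44083735 UMIs.

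Barcodes with fewer than 200 genes, or with over 15% of UMIs from mitochondria, were dropped, which removed 3.75% of WT and 14.5% of the other barcodes. Scrublet's automatic threshold (scanpy 1.11.5) marked 0 cells in each library and so did not work. In its place the top-scoring cells were taken out, 0.8% for each 1000 barcodes: 1355 WT cells (10.6%), whose median of 2344 UMIs was close to the 2305 of kept cells, and 450 of the others (6.49%; 8090.5 against 4170.5 UMIs). The remaining cells of the 2 libraries were pooled, with no batch integration, and clustered by Leiden at resolution 1 (20 neighbours, 30 principal components of 2000 variable genes that excluded the members, log scale of 10000). Names went to the class whose markers were most frequent among a cluster's top 50 genes, given at least 3; a cluster stayed unnamed on a tie, or where a rival class had more of the first 10 genes, so shares and levels would differ under other names.

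UMIs were summed per class and library and given as CPM with exact Poisson intervals. Log2 ratios used a prior of 0.5 CPM and exact conditional binomial intervals. The method was tested on simulated data that held counting error only, so that test does not cover differences between cells or libraries. UMIs of 1 cell are not independent of one another, so intervals cover counting error only. Values were given for Vps18 and Snx5, the 8 highest and 8 lowest ratios in neutrophil-like cells, 3 at either end of the ratios in the remaining classes, up to 4 members high in each class and the 5 with the highest level overall; Vps28, Vps29, Snx3, Snx2 and the paralogs were added after their values were seen. The members and lists were chosen with earlier results of these data known. TMM factors came from edgeR 4.0.16. Alternatives changed scaling, filters, doublets, mitochondrial limit, cell weighting, sex-linked selection of cells and resolution. Classes with under 100 cells in a library, and clusters that took no name (1448 and 378 cells), were not compared.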

Additional observations from a re-analysis of the deposited data

Results flagged for a closer look

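For 3 members the log2 ratio, library labelled Otud1-/- over WT, passed 1.5-fold in at least 1 class and had the opposite sign in another, with intervals that excluded 0 in both; with 1 library per genotype the difference between classes was not tested. Snx5 had -1.66 in neutrophil-like and 0.18 in B-like cells, and under 1.5-fold it had -0.26 in monocyte/macrophage-like and -0.44 in dendritic-like cells. Vps37b had -0.64 in neutrophil-like, -0.70 in monocyte/macrophage-like and -0.70 in dendritic-like cells, and 0.11 in T-like cells. In B-like cells it had -0.30, under 1.5-fold. The T-like value of Vps37b ran from -0.11 to 0.30 over the alternative settings and kept its direction in 9 of 10. Ap2s1 had -0.67 in neutrophil-like, 0.13 in monocyte/macrophage-like and 0.55 in NK-like cells.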

How the results depend on the processing

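No paired analysis was possible because each genotype had 1 library. In neutrophil-like cells the main counts were 5 members higher and 3 lower, with a median log2 ratio of 0.52. TMM scaling gave 12 higher and 1 lower with a median of 1.09. A filter of 20 CPM and 20 UMIs compared 39 members, of which 8 were lower (32.6% of all genes), and the median reversed to -0.032; without a filter 35 of 85 were lower and the median reversed to -0.42, with lower-level members entering the count. Keeping presumed doublets left 3 of 20 higher (16.6% of all genes), and weighting cells equally gave 8 of 18 higher (25.2%). Cells with a Y-linked and no Xist UMI gave 1 of 19 lower (15.6%). Such cells were 218 of 910 in WT and 494 of 893 in the other library. Among B-like cells they were 674 of 2097 and 1719 of 2879. These shares also depend on depth, and whether the libraries differed in the sex of the animals was not tested. Within cluster 1, 2 were higher (8.18% of all genes) and 0 lower (11.6%) of 16 members compared. The cause of the changes under doublets, weighting and sex-linked selection was not tested. In monocyte/macrophage-like cells the median of 0.13 reversed to -0.018 without a filter. The 11 member and class pairs called high became 22 at 1.5-fold and 4 at 3-fold, by construction. Over the 11 alternatives for neutrophil-like cells, Snx5, Vps18 and Snx18 stayed past 1.5-fold in 11, Snx20 in 10, Snx10 and Ap2s1 in 8 each, and Vps26a and Vps37b in 7 each. In the main setting Vps18, Snx5 and Ap2s1 met the mean level for comparison only through their higher library. Depth limits the low members: 19 of 92 could be compared in neutrophil-like cells.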
